A study of Mus musculus with 6 samples.

Results

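The genes described here encode the factors that start, elongate and end the synthesis of proteins on cytosolic ribosomes. They were taken by name: every probe of the array whose gene name begins with Eif or Eef and a digit, together with Pabpc1, Pabpc4, Paip1, Etf1 and Gspt1. The rule gave 106 of the 25697 probes and 64 of the 17916 gene symbols. Of these, 26 probes of 19 genes (24.5% of the member probes) were detected above background (detection p-value below 0.05) in each of the 2 arrays of some line and could be compared, against 2333 probes (9.08%) of the whole array. Each line is named as in the labels. EPC is a primary endothelial progenitor cell line sorted by surface markers, Flk-1 among them, from the lungs of athymic nude mice and harvested at passage 3 to 6. EPC_acLDL is the same kind of cell after labelling with fluorescent acetylated LDL and replating of the cells that had taken it up, also at passage 3 to 6. EPC_Late is the high-passage line, grown on from EPC_acLDL and harvested at passage 16 to 20. All 3 lines share the strain, the tissue and the mouse endothelial medium, and each was measured as total RNA on 2 Illumina MouseRef-8 arrays of a single chip. Each condition is thus 1 cell line, so passage number and any other history of that line cannot be told apart. In bulk RNA, fewer cells of one kind and less RNA per cell cannot be told apart either.

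Protein synthesis begins when eIF2 brings the initiator tRNA to the small ribosomal subunit, which also carries the large eIF3 complex. The eIF4F complex, made of the cap-binding protein eIF4E, the scaffold eIF4G and the helicase eIF4A, recruits this subunit to the capped mRNA, and the poly(A)-binding protein Pabpc1 joins the tail of the mRNA to eIF4G. The eEF1 factors then deliver aminoacyl-tRNAs and eEF2 moves the ribosome along, while eRF1 (Etf1) and eRF3 (Gspt1) release the finished chain. Growing cells make these factors in large amounts, and many of their mRNAs carry a pyrimidine-rich 5′ end that ties their translation to mTOR.

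The 6 arrays had median intensities from 304.6 to 358.7 and between 2177 and 2365 probes above background, of which 22 to 26 were translation factor probes. The median SD between the 2 arrays of a line was 0.05 to 0.10 log2 units over the tested translation factor probes and 0.10 to 0.12 over all tested probes. Few genes were above background on these arrays: of marker lists, 1 of 16 endothelial genes (Kdr), 1 of 7 blood cell genes, 2 of 11 fibroblast and smooth muscle genes, 2 of 7 epithelial genes and 0 of 5 proliferation genes could be tested. Kdr, which encodes Flk-1, differed by -0.01 to 0.02 log2 units between the lines.

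Few translation factor probes passed the test between the early lines, and many passed it between the high-passage line and each of them. EPC_acLDL against EPC gave 1 called translation factor probe of 26 (3.85%), where called means an adjusted p below 0.05 in limma's fit of all tested probes. Over all 2333 tested probes 3.30% were called in this comparison, with 1.93% higher and 1.37% lower in EPC_acLDL. This count depended on the variance model and the background correction: 8 member probes (30.8%, beside 281 of the 2333) were called with limma-trend and 6 (23.1%, beside 273 of the 2333) without background correction. EPC_Late against EPC gave 13 called probes of the 26, from 10 genes, against 23.9% of all tested probes. Of these, 8 were higher and 5 lower in EPC_Late, while over all tested probes 10.9% were higher and 13.0% lower. With 1 probe per gene there were 5 higher and 5 lower. EPC_Late against EPC_acLDL gave 15 called probes of the 26 (57.7%), also from 10 genes, against 20.9% of all tested probes. Here 8 were higher and 7 lower, with 9.34% higher and 11.5% lower over all tested probes. The split was 4 higher and 6 lower with 1 probe per gene and 5 higher and 8 lower with a plain shift of each array to a common 75th percentile, and without either EPC_acLDL array 8 probes were called (30.8%, beside 8.70% and 9.77% of all tested). The 75th percentile was taken over all 25697 probes, most of them not above background, so the plain shift is set by background probes. The comparisons share arrays and are not independent of each other.

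The members did not move as a block. Their median log2 difference was 0.02, 0.13 and -0.03 for EPC_acLDL against EPC, for EPC_Late against EPC and for EPC_Late against EPC_acLDL, in this order, beside 0.01, 0.01 and 0.00 over all tested probes. With 1 probe per gene the second of these was -0.05. With the plain shift the first and last were 0.19 and -0.27, beside 0.16 and -0.15 over all tested probes. The median size of the difference, whatever its sign, was 0.24, 0.59 and 0.60, beside 0.19, 0.25 and 0.23 over all tested probes. The same shares were also taken over probes above background in all 3 lines, whose median SE was 0.12 for the members and 0.14 for all such probes: 11 of 20 such translation factor probes (55.0%) were called in EPC_Late against EPC, beside 25.6% of 1686, and 13 (65.0%) in EPC_Late against EPC_acLDL, beside 22.7%. The cytosolic ribosomal proteins, the other large gene family of the translation machinery, showed fewer calls. Of their 27 tested probes, 0 were called in EPC_acLDL against EPC, 2 (7.41%) in EPC_Late against EPC and 4 (14.8%) in EPC_Late against EPC_acLDL. Their median SE was 0.16, against 0.12 for the translation factors and 0.15 for all tested probes.

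**Figure D1:**
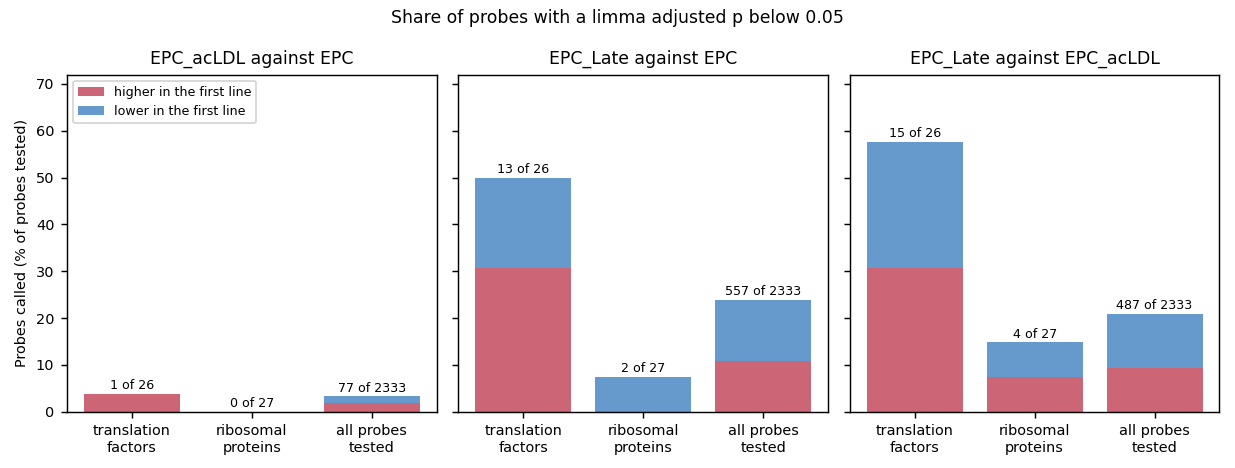
Percent of tested probes with a limma adjusted p below 0.05 (vertical axis) in each comparison of lines, for the translation factors, the cytosolic ribosomal proteins and all tested probes, split into probes higher (red) and lower (blue) in the first-named line. In the comparisons with EPC_Late 13 and 15 of the 26 translation factor probes were called, and 1 between the early lines.

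The elongation factors had many called probes in the comparisons with EPC_Late, from few genes with several probes each. Of 21 probes of 9 genes, 10 probes of 5 genes could be tested, and their median log2 difference was -0.04 in EPC_acLDL against EPC, 0.64 in EPC_Late against EPC and 0.66 in EPC_Late against EPC_acLDL. Against EPC, 6 of the 10 probes, from 3 genes, rose in EPC_Late and 0 fell, beside 10.9% higher and 13.0% lower over all tested probes. Against EPC_acLDL, 7 rose and 1, that of Eif5a, fell, beside 9.34% higher and 11.5% lower over all tested probes. Both counts of rises include an Eef1a2 probe (ILMN_2645171) that passed the background filter through EPC_Late alone. All of the probes that rose belong to Eef1a1, Eef1a2 and Eef2.

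Eef1a2 encodes the isoform of the tRNA-delivering factor eEF1A that is best known from muscle and neurons. Its brightest probe (ILMN_2666990) had intensities of 1896 and 1825 in EPC, 1941 and 1829 in EPC_acLDL, and 4321 and 3992 in EPC_Late. Both EPC_Late arrays lay above all 4 arrays of the early lines, which overlapped each other in intensity. After normalization the log2 signal was 10.68 ± 0.00, 10.43 ± 0.03 and 11.95 ± 0.10 (mean ± SD, n = 2 arrays per line). This was 2.40-fold higher in EPC_Late than in EPC (log2 difference 1.26, SE 0.11, limma adjusted p = 0.000783) and 2.86-fold higher than in EPC_acLDL (1.52, SE 0.11, adjusted p = 0.000628). A further probe of the gene (ILMN_2971559) read 1256 and 1165, then 1252 and 1251, then 2124 and 2089, and rose 1.99-fold and 2.25-fold (adjusted p = 0.00184 and 0.00133). The third probe (ILMN_2645171) was above background only on the EPC_Late arrays, at 517.1 and 515.7, so its change is a bound, at least 1.42-fold against EPC and at least 1.49-fold against EPC_acLDL. It passed the background filter through EPC_Late alone, so its direction was fixed by the filter and its calls, counted above, add no support. Bound and fit hold after background correction, and without one the differences were 0.26 and 0.40 log2 units, both called. The call of this probe against EPC was lost without EPC_Late replicate 1 (adjusted p = 0.0696).

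Eef2 encodes the translocase that moves the ribosome by one codon. Its brightest probe (ILMN_1239110) read 6539 and 6092 in EPC, 8832 and 8446 in EPC_acLDL, and 11784 and 11669 in EPC_Late. In intensity the 3 lines did not overlap. The normalized signal was 12.68 ± 0.05, 12.86 ± 0.02 and 13.67 ± 0.01, which put EPC_Late 1.99-fold above EPC (log2 difference 0.99, SE 0.11, adjusted p = 0.00138) and 1.75-fold above EPC_acLDL (0.81, SE 0.11, adjusted p = 0.00389), with no call between the early lines (0.18, SE 0.11, adjusted p = 0.392). With a plain shift of each array the difference from EPC_acLDL was 0.46 (adjusted p = 0.0464). The second probe (ILMN_2589181), at 1650 and 1704, 2012 and 1924, and 2929 and 2656, rose 1.70-fold in both comparisons (limma adjusted p = 0.00518 and 0.00693). Its call against EPC_acLDL was lost without either EPC_acLDL array (adjusted p = 0.0511 and 0.0504). The dimmest probe (ILMN_1252294) lay near background in the early lines and was not called, with differences of 0.42 (SE 0.18) and 0.38 (SE 0.18). It passed the background filter through EPC_Late alone, so its direction adds no support.

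Eef1a1, the general isoform of eEF1A, gave a smaller and less firm difference. Its brightest probe (ILMN_1377920) read 9859 and 9050 in EPC, 10722 and 10876 in EPC_acLDL, and 11356 and 13019 in EPC_Late. The EPC_Late arrays were the highest, but the gap to EPC_acLDL was smaller than the gap between the 2 EPC_Late arrays. The fit gave 1.43-fold against EPC (log2 difference 0.51, SE 0.12, adjusted p = 0.0269) and 1.48-fold against EPC_acLDL (0.56, SE 0.12, adjusted p = 0.0219). The size of these values depended on quantile normalization, which gives every array the same distribution of values. With a plain shift of each array, itself set by background probes, the differences were 0.30 and 0.18, neither of them called (limma adjusted p = 0.195 and 0.423). The first call was also lost in 5 of the 6 fits that left out 1 array (adjusted p from 0.0587 to 0.114) and the second without either EPC_acLDL array or EPC_Late replicate 2 (0.0956 to 0.123). The other tested probe (ILMN_2588052) was called only against EPC_acLDL (1.35-fold, adjusted p = 0.0439), and leaving out any 1 array ended that call (0.0614 to 0.186). Taking the replicate number as a block also ended that call (limma adjusted p = 0.0665). The remaining probe of Eef1a1 was not above background.

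Eef1g gave no call and Eif5a fell in 1 comparison. Eef1g encodes the gamma subunit of the exchange complex that recharges eEF1A, and its probe read 64671 to 70634 on the 6 arrays, close to the highest intensities on each array (70723 to 71993). At this brightness little room is left for an increase, and the differences of -0.03, 0.05 and 0.08 log2 units (SE 0.11) are read as such. Eif5a encodes the hypusine-bearing protein that helps ribosomes through difficult peptide bonds. It read 1698 and 1770 in EPC, 3199 and 2703 in EPC_acLDL, and 1508 and 1292 in EPC_Late. The EPC_acLDL arrays were the highest and the EPC_Late arrays the lowest, with no overlap between lines. The log2 signals of 10.58 ± 0.08, 11.21 ± 0.13 and 10.11 ± 0.21 put EPC_Late 2.15-fold below EPC_acLDL (log2 difference -1.11, SE 0.15, limma adjusted p = 0.00389). The other steps missed the threshold, at 0.63 (SE 0.15, adjusted p = 0.0803) for EPC_acLDL against EPC and -0.48 (SE 0.15, adjusted p = 0.0642) for EPC_Late against EPC. The former was called under 5 of the alternatives (limma adjusted p = 0.0402 under a plain shift), counting a test without adjustment of its p-values. The latter was called under 4 (limma adjusted p = 0.0441 over probes above background on all 6 arrays). Another probe of Eif5a did not pass the background filter.

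**Figure D2:**
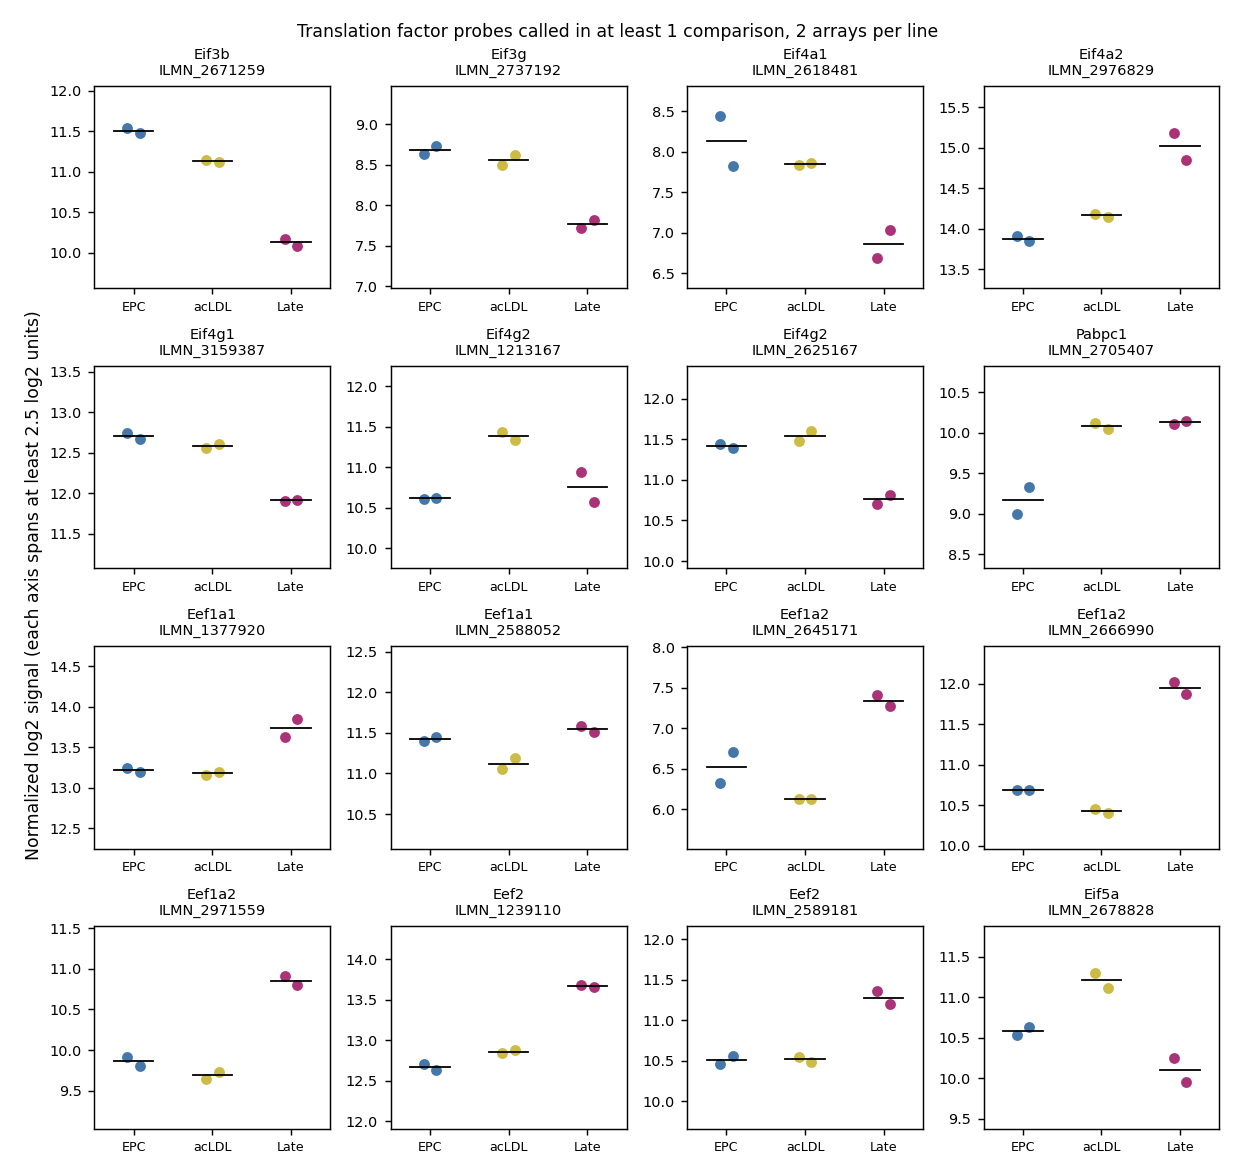
Normalized log2 signal (vertical axis) of the 16 translation factor probes called in at least 1 comparison, with 1 point per array, 2 arrays per line and a bar at the mean. EPC_Late is highest for Eef1a2 and Eef2, lowest for Eif3b, Eif3g, Eif4a1 and Eif4g1, and level with EPC_acLDL for Pabpc1. The Eef1a2 probe ILMN_2645171 passed the background filter through EPC_Late alone.

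A pair of sequence features known from the promoters of such genes were looked up in RefSeq sequence (build GRCm38.p6, 250 bases before to 50 after each annotated start), because many of the members carry them. Both were chosen after the sequences had been seen, and a match is only a description. A pyrimidine run was a C followed by at least 6 further C or T on the strand of the gene, beginning from 10 bases before to 50 after the start. Terminal oligopyrimidine mRNAs have such letters at their very 5′ end, a position that this pattern does not require. The run was found in 18 of the 49 member genes with a sequence (36.7%), in 49 of 70 ribosomal protein genes (70.0%) and in 27.6% of protein-coding genes. The elongation factor genes whose probes rose in EPC_Late all had one, shown here in capitals within 30 bases on the gene's strand, Eef1a1 at chr9:78481710-78481739 (minus strand), Eef1a2 at chr2:181156980-181157009 (minus strand) and Eef2 at chr10:81176634-81176663 (plus strand).
Eef1a1: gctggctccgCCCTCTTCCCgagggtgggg
Eef1a2: gctcactggttCTCTCCCTCgctccggtgc
Eef2: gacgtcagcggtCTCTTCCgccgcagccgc
The run begins 5 bases before the annotated start in Eef1a1, and at bases 18 and 16 after it in Eef1a2 and Eef2. Whether these mRNAs begin with the run was not tested. Eif3l, Eif4enif1 and Eif5a, which were not called higher in EPC_Late, had such runs as well, and Eif4a2, whose probe rose in EPC_Late, had none in its window.

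The palindrome CACGTG, the E-box bound by Myc, Max and related factors, does not overlap the pyrimidine pattern and reads alike on both strands. It was present in 12 of the 49 member genes (24.5%), in 1559 of 17491 protein-coding genes (8.91%) and in 6 of 70 ribosomal protein genes (8.57%). Among the tested members it was found in Eef2, Eif4a1, Eif4g1 and Eif5a, genes that differed in opposite directions between the lines. The windows, with the E-box in capitals, are Eef2 at chr10:81176576-81176605 (plus strand), Eif4a1 at chr11:69672595-69672624 (minus strand), Eif4g1 at chr16:20672661-20672690 and again at chr16:20672730-20672759 (plus strand), and, at 1 of its sites, Eif5a at chr11:69921443-69921472 (minus strand).
Eef2: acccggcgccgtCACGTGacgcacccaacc
Eif4a1: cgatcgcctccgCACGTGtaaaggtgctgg
Eif4g1, upstream: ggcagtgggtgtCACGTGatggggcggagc
Eif4g1, downstream: ctctgcgccggtCACGTGgggcgctggctg
Eif5a: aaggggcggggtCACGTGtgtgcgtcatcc
Pabpc1, Eef1g and Eif4g2 had no sequence in the table used.

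Among the factors that bring the mRNA to the ribosome, single genes of the same complex changed in opposite directions. Of 24 probes of 13 genes in this group, 8 probes of 6 genes were tested. EPC_acLDL against EPC gave 1 call, higher, beside 1.93% higher over all tested probes. EPC_Late against EPC gave 2 higher and 3 lower, and EPC_Late against EPC_acLDL 1 higher and 4 lower. Over all tested probes 10.9% were higher and 13.0% lower in the former of these, and 9.34% and 11.5% in the latter.

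The eIF4A helicase unwinds the 5′ end of the mRNA and has the close paralogs Eif4a1 and Eif4a2. Eif4a2 read 16674 and 15503 in EPC, 21709 and 21267 in EPC_acLDL, and 30631 and 26474 in EPC_Late. The lines did not overlap, with EPC_Late highest. The log2 signals of 13.88 ± 0.05, 14.16 ± 0.03 and 15.02 ± 0.24 gave 2.20-fold in EPC_Late over EPC (log2 difference 1.14, SE 0.14, adjusted p = 0.00233) and 1.81-fold over EPC_acLDL (0.85, SE 0.14, adjusted p = 0.00878). With a plain shift of the arrays the differences were 0.76 and 0.42, the second no longer called (adjusted p = 0.081), and it was also lost without either EPC_acLDL array (0.0584 and 0.0651).

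Eif4a1 moved the other way, on a dim probe (ILMN_2618481), the only probe of the gene to pass the background filter. It read 641.6 and 554.3 in EPC, 571.0 and 603.5 in EPC_acLDL, and 440.5 and 490.5 in EPC_Late, where only 1 of the 2 arrays was above background. Both EPC_Late arrays lay below all 4 early arrays. The fit gave a signal 2.42-fold lower in EPC_Late than in EPC (log2 difference -1.28, SE 0.22, limma adjusted p = 0.00863) and 1.99-fold lower than in EPC_acLDL (-0.99, SE 0.22, adjusted p = 0.0247). The size rests on the background correction, since the differences were -0.47 and -0.34 without one, both still called. The call against EPC was lost without EPC_Late replicate 1 (adjusted p = 0.0563) and that against EPC_acLDL without any of the 4 arrays compared (0.0554 to 0.129).

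Eif4g1, the main scaffold of the complex, read 6703 and 6205 in EPC, 7249 and 7175 in EPC_acLDL, and 4030 and 4083 in EPC_Late. EPC_Late lay clearly below the early lines, which differed by -0.12 log2 units (SE 0.11) after normalization. Its log2 signal fell from 12.71 ± 0.05 and 12.59 ± 0.04 in the early lines to 11.91 ± 0.01, which is 1.73-fold below EPC (log2 difference -0.79, SE 0.11, adjusted p = 0.00311) and 1.60-fold below EPC_acLDL (-0.67, SE 0.11, adjusted p = 0.00782). The second of these calls was lost without either EPC_acLDL array (adjusted p = 0.0535 and 0.0577).

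Eif4g2 encodes a shorter relative of the scaffold that lacks the eIF4E-binding part and serves cap-independent initiation. Its 2 probes agreed for EPC_Late against EPC_acLDL and differed for EPC_Late against EPC. Probe ILMN_2625167 read 2919 and 2751 in EPC, 3585 and 3647 in EPC_acLDL, and 1927 and 2106 in EPC_Late, and was 1.58-fold lower in EPC_Late than in EPC (log2 difference -0.66, SE 0.12, adjusted p = 0.00851) and 1.72-fold lower than in EPC_acLDL (-0.78, SE 0.12, adjusted p = 0.00554). Probe ILMN_1213167 read 1798 and 1751, then 3449 and 3137, then 2177 and 1825, so that EPC_acLDL was highest and EPC_Late just above EPC. It was 1.55-fold lower in EPC_Late than in EPC_acLDL (-0.63, SE 0.15, limma adjusted p = 0.0299) with no call against EPC (0.14, adjusted p = 0.587). Its difference between the early lines, 1.71-fold (0.77, SE 0.15), missed the threshold (limma adjusted p = 0.0538). Under a plain shift the limma adjusted p was 0.0222. The difference was called under 6 of the alternatives, a count that includes a test without adjustment of its p-values. The call of the former probe against EPC was lost without EPC_Late replicate 1 (adjusted p = 0.0558), and that of the latter against EPC_acLDL without EPC replicate 1, either EPC_acLDL array or EPC_Late replicate 2 (0.0506 to 0.145).

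Pabpc1, the poly(A)-binding protein, was the member called between the early lines. Probe ILMN_2705407 read 795.5 and 925.4 in EPC, 1602 and 1493 in EPC_acLDL, and 1396 and 1433 in EPC_Late. Both EPC arrays were the lowest, and the arrays of the 2 other lines lay between 1396 and 1602. The log2 signals of 9.16 ± 0.23, 10.08 ± 0.05 and 10.13 ± 0.03 put EPC_acLDL 1.89-fold above EPC (log2 difference 0.92, SE 0.14, adjusted p = 0.0289) and EPC_Late 1.95-fold above EPC (0.97, SE 0.14, adjusted p = 0.00409), and the difference between EPC_Late and EPC_acLDL was 0.05 (SE 0.14). The call in EPC_acLDL was lost in 5 of the 6 fits without 1 array, where the adjusted p ran from 0.0661 to 0.200, and with the replicate number as a block (0.0513). A dimmer probe (ILMN_1259769) gave differences of 0.90 (SE 0.29, adjusted p = 0.159) and 0.75 (SE 0.29, adjusted p = 0.121) for the same comparisons with EPC, and the third was not above background. Eif4e2, a relative of the cap-binding protein, read 1204 to 1710 and missed the threshold in each comparison. Its lowest adjusted p was in EPC_Late against EPC_acLDL (log2 difference -0.39, SE 0.12, limma adjusted p = 0.0636). That difference was called under 6 of the alternatives (-0.62, limma adjusted p = 0.0150 under a plain shift), counting a test without adjustment of its p-values.

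**Figure D3:**
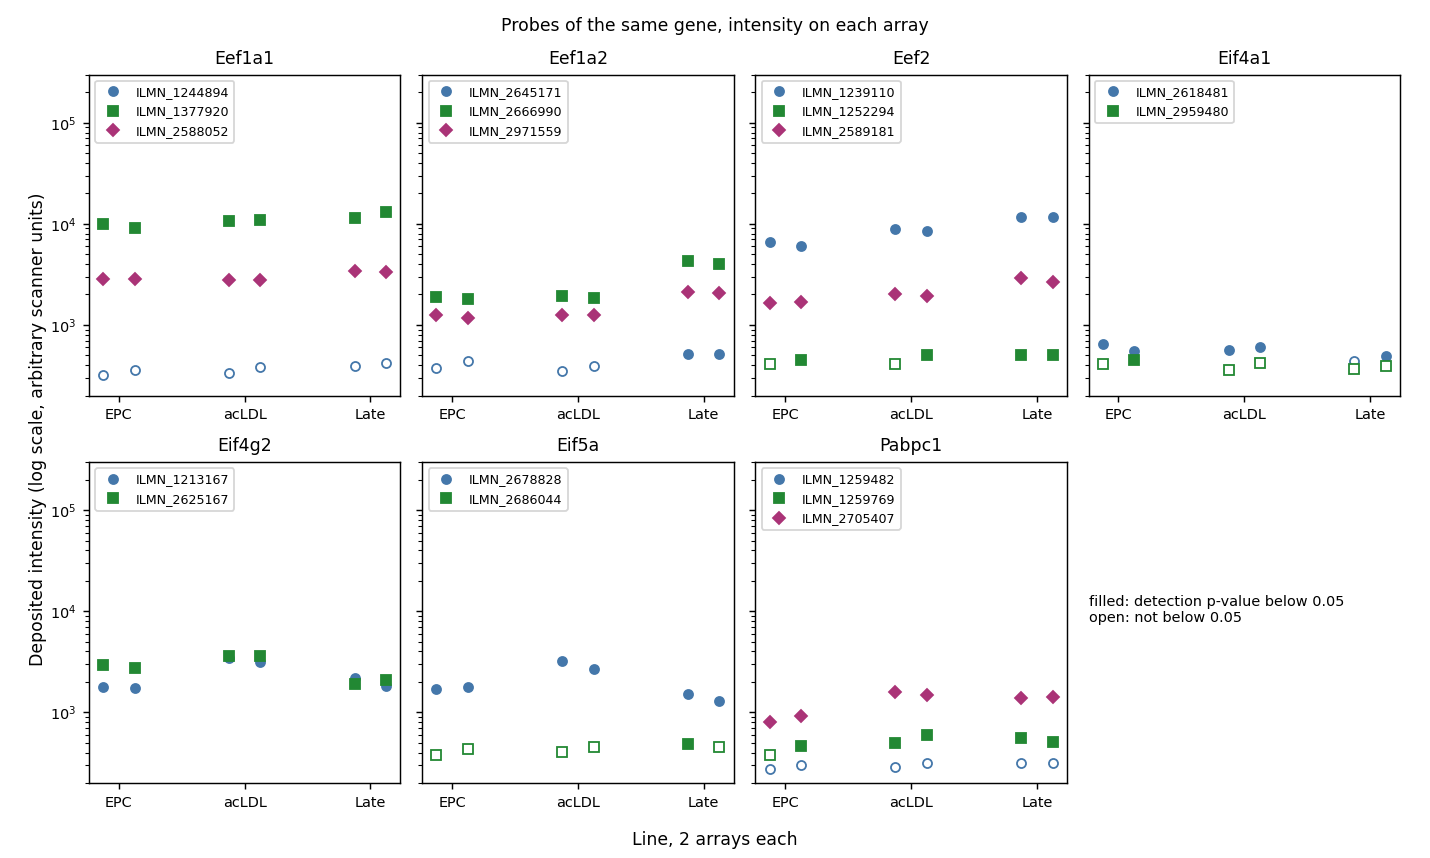
Deposited intensity (log scale) on each of the 6 arrays for 7 genes with several probes, with a marker shape per probe, filled where the probe was above background and open where it was not. The probes of Eef1a2 and Eef2 are highest in EPC_Late, both probes of Eif4g2 are lower in EPC_Late than in EPC_acLDL but only 1 is lower than in EPC, and several genes have a probe near background on all arrays. The dimmest probes of Eef1a2 (ILMN_2645171) and Eef2 (ILMN_1252294) passed the background filter through EPC_Late alone, so their direction adds no support.

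The eIF3 complex binds the small subunit and holds the other factors in place. Of 19 probes of 12 genes, 4 probes of 4 genes were tested, and in each comparison with EPC_Late 2 of the 4 fell, with 0 higher. Over all tested probes 13.0% were lower against EPC and 11.5% against EPC_acLDL. Eif3b, the scaffold subunit around which the complex is built, read 3071 and 2863 in EPC, 2956 and 2709 in EPC_acLDL, and 1450 and 1369 in EPC_Late. The early lines overlapped in intensity and EPC_Late lay below them. Its log2 signal fell from 11.51 ± 0.04 and 11.13 ± 0.01 to 10.13 ± 0.06, 2.60-fold below EPC (log2 difference -1.38, SE 0.11, adjusted p = 0.000513) and 2.0-fold below EPC_acLDL (-1.0, SE 0.11, adjusted p = 0.00192). The former was the largest drop among the tested members in this fit, beside -1.28 (SE 0.22) for Eif4a1. Another probe of Eif3b (ILMN_1233746) was not above background.

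Eif3g, an RNA-binding subunit of the same complex, read 689.5 and 724.9 in EPC, 729.1 and 786.4 in EPC_acLDL, and 558.2 and 586.3 in EPC_Late. Both EPC_Late arrays were again the lowest. The fit gave 1.87-fold below EPC (log2 difference -0.91, SE 0.12, limma adjusted p = 0.00265) and 1.73-fold below EPC_acLDL (-0.79, SE 0.12, adjusted p = 0.00576). As for Eif4a1 the size rests on the background correction, and without one the differences were -0.42 and -0.36, both called. Another probe of Eif3g (ILMN_2737193) did not pass the background filter. Eif3d and Eif3l, the former a subunit that can itself bind the cap, gave no call, with differences between -0.26 and 0.21 (SE 0.19 for Eif3d and 0.16 for Eif3l).

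Of the factors that select the start codon and carry the initiator tRNA, 21 probes of 14 genes were on the array and only 1 probe, of Eif5, was tested. Eif5 triggers GTP hydrolysis by eIF2 once the start codon is found. It read 20443 and 20521 in EPC, 26759 and 27542 in EPC_acLDL, and 21113 and 22542 in EPC_Late. In intensity EPC_acLDL was highest and EPC_Late just above EPC. After normalization the order changed, with 14.25 ± 0.00, 14.49 ± 0.02 and 14.60 ± 0.00, and no difference was called (0.24, 0.35 and 0.11, SE 0.11). Under the alternatives the first was called 3 times and the second 6 times. Both counts include a test without adjustment of its p-values, and the second also includes that test after adjustment. EPC and EPC_Late each had an SD of 0.00 after quantile normalization, so that test adds no support to the second difference. With a plain shift of the arrays EPC_Late differed from EPC by 0.01 and from EPC_acLDL by -0.31. The order of EPC_Late and EPC_acLDL thus turned with the normalization, while EPC_acLDL lay above EPC with both (0.24 and 0.33).

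The remaining tested members gave no call. Eif2ak2 encodes PKR, the kinase that phosphorylates eIF2 alpha when double-stranded RNA is present, and differed by 0.16, 0.03 and -0.13 (SE 0.13). Eif4enif1, which carries eIF4E into the nucleus, passed the background filter through EPC_acLDL alone (ILMN_2956153), so its direction was fixed by the filter. After background correction the bounds were 1.09-fold over EPC and 1.12-fold over EPC_Late, and neither difference was called (limma adjusted p = 0.27 and 0.331). Its other probe was not above background. Eif4a3 bears the name of an initiation factor but belongs to the exon junction complex deposited by splicing. It read 15275 and 14353 in EPC, 16259 and 13604 in EPC_acLDL, and 11849 and 10343 in EPC_Late, and differed by -0.23 against EPC (SE 0.15, adjusted p = 0.346) and by -0.10 against EPC_acLDL.

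**Figure D4:**
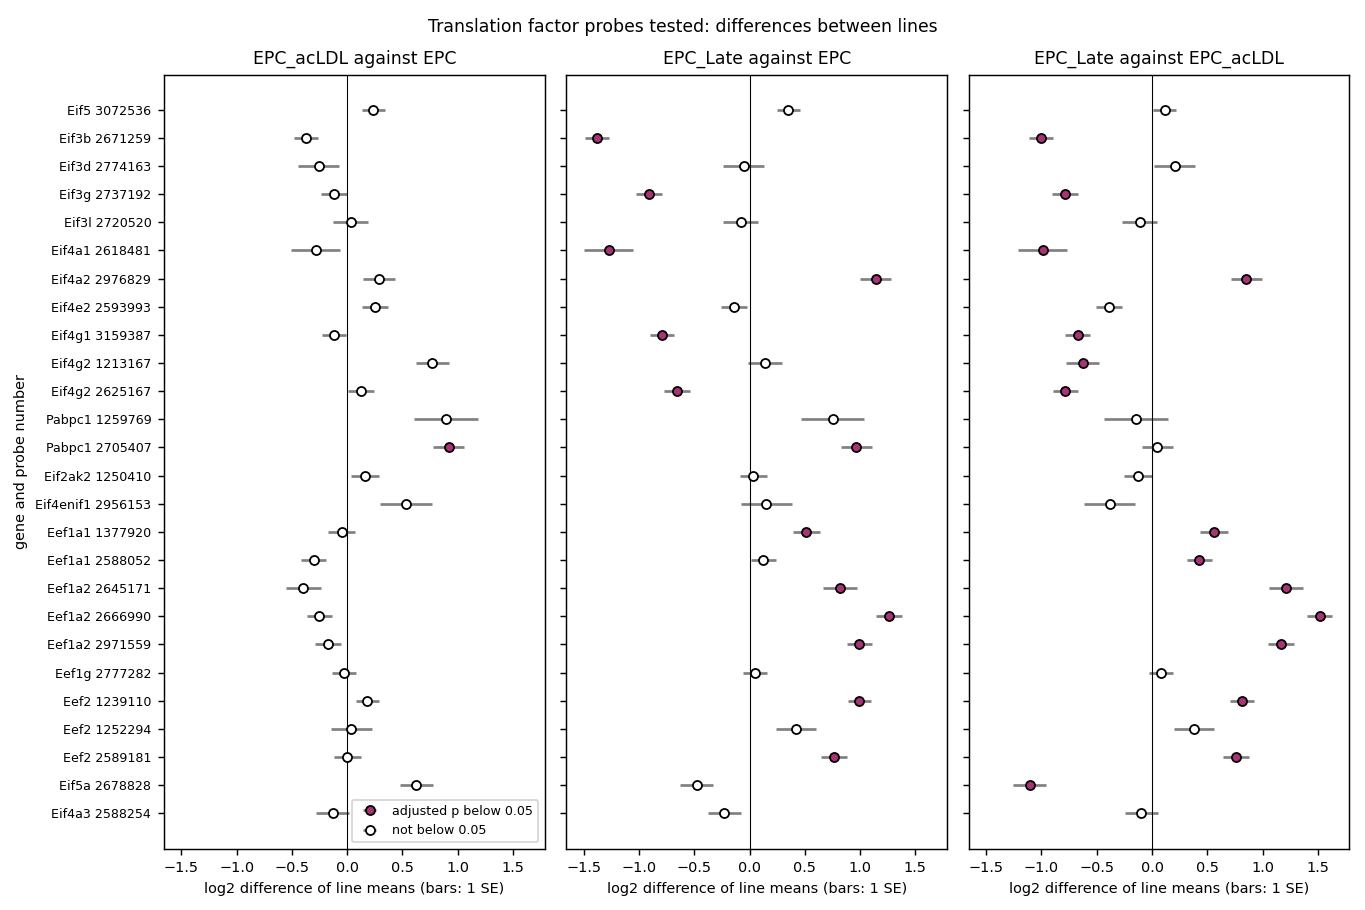
Log2 difference of line means (horizontal axis, bars 1 SE) for the 26 tested translation factor probes in the 3 comparisons, filled where the limma adjusted p was below 0.05. Calls lie on both sides of 0 in the comparisons with EPC_Late, with the Eef1a2, Eef2 and Eif4a2 probes to the right and those of Eif3b, Eif3g, Eif4a1 and Eif4g1 to the left. The EPC_Late values of the third Eef1a2 probe (ILMN_2645171) are fitted against lines that were not above background.

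In all, 80 member probes failed the background filter in every line and have no fold. They left 45 genes without a value, which included all subunits of eIF2 and its exchange factor eIF2B on the array (Eif2s1, Eif2s2, Eif2s3x, Eif2s3y, Eif2b1, Eif2b2, Eif2b4 and Eif2b5). The cap-binding protein Eif4e, its inhibitors Eif4ebp1, Eif4ebp2 and Eif4ebp3, and the helicase partners Eif4b and Eif4h were also among them. So were Pabpc4, Paip1, both release factors Etf1 and Gspt1, the kinases Eef2k, Eif2ak1 and Eif2ak4, the eEF1 exchange subunits Eef1b2 and Eef1d, the ribosome anti-association factor Eif6, and Ago1 to Ago4, Argonaute genes that the array still names as Eif2c. Factors that every cell needs are among them, so a probe not above background is not read as a gene not expressed.

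Genes around the translation factors were read from 4 lists, and 0 genes of these lists were called in EPC_acLDL against EPC. Over all tested probes 3.30% were called in that comparison, 23.9% in EPC_Late against EPC and 20.9% in EPC_Late against EPC_acLDL. Of 22 genes of the mTOR and eIF4 control list, 5 were tested. Paip2, an inhibitor of the poly(A)-binding protein, was higher in EPC_Late than in EPC (log2 difference 0.75, limma adjusted p = 0.00863). Rictor, a subunit of mTOR complex 2, was higher than in EPC_acLDL (0.67, adjusted p = 0.00782), and 0 genes of the list were lower.

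The integrated stress response, which is switched on by phosphorylation of eIF2 alpha, had 19 genes on the array and 4 tested. Trib3, a target of this response that dampens it and Akt signalling, read 708.5 and 742.7 in EPC, 816.1 and 735.6 in EPC_acLDL, and 3150 and 3451 in EPC_Late. It was higher in EPC_Late by 2.77 log2 units against EPC and 2.89 against EPC_acLDL (adjusted p = 0.000123 and 0.000253). Ddit3, the transcription factor CHOP, was higher by 1.29 and 1.95 (limma adjusted p = 0.00236 and 0.000827). Phgdh, an enzyme of serine synthesis, was called in EPC_Late against EPC_acLDL (limma adjusted p = 0.0247), where the latter was not above background. It read 414.0 and 468.3 in EPC_acLDL and 492.7 and 536.4 in EPC_Late, and its bound of 1.46-fold holds only after background correction.

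The aminoacyl-tRNA synthetases, which load the tRNAs that eEF1A delivers, were split. Of 22 genes, 7 genes with 9 probes were tested, and 3 probes rose and 3 fell in each comparison with EPC_Late. Over all tested probes 10.9% rose and 13.0% fell against EPC, and 9.34% and 11.5% against EPC_acLDL. Wars, the tryptophan enzyme and also a gene induced by interferon, rose on both probes, by 2.41 and 1.57 against EPC and by 2.25 and 1.93 against EPC_acLDL (adjusted p from 8e-05 to 0.00266). Dars rose against EPC on its dimmer probe (0.96, adjusted p = 0.00877), with 0.32 on the brighter (adjusted p = 0.127), and Mars1 against EPC_acLDL (0.59, adjusted p = 0.0153). Kars fell by 1.82 and 1.17, Vars by 1.08 and 0.82 and Farsb by 0.59 and 0.54 on the log2 scale (limma adjusted p from 0.00169 to 0.0180).

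Of 21 other genes that help translation, 8 genes with 10 probes were tested. Serbp1, an mRNA- and ribosome-binding protein, fell by 1.43 against EPC and 1.22 against EPC_acLDL (adjusted p = 0.00294 and 0.00719). Upf2, of nonsense-mediated decay, fell by 0.62 and 0.72 (limma adjusted p = 0.0121 and 0.00857). Against EPC alone, Mcts1, a recycling and reinitiation factor, fell by 0.79 (limma adjusted p = 0.00761). Among the marker lists, the blood cell gene Coro1a fell by 1.29 (adjusted p = 0.0147) and the fibroblast gene Col1a2 rose by 0.43 (limma adjusted p = 0.0470) in EPC_Late against EPC, where the other tested gene of the latter list, Acta2, differed by -0.18 (adjusted p = 0.450). Whether a change in the makeup of the cultures has a part in the differences between translation factors was not tested.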

How the data were processed

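Total RNA of 3 mouse lines, 2 arrays each, was labelled and hybridised to Illumina MouseRef-8 v2.0 BeadChips. The authors summarised bead values without normalization and with local background correction, and the deposited table gives for each array an intensity and a detection p-value per probe. The deposited intensities were background-corrected and quantile-normalized with neqc (limma 3.58.1, R 4.3.3) from the detection p-values, with an offset of 16, on the log2 scale. The steps of the deposited detection p-values correspond to 798 negative control probes. A probe was called above background at a detection p-value below 0.05 and was tested if this held for each of the 2 arrays of some line. A single limma fit of all 6 arrays gave the 3 comparisons, with Benjamini-Hochberg adjustment over the 2333 tested probes and a threshold of 0.05.

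The description of the series gives duplicates and the methods give separate experiments run in duplicate. Whether the 2 arrays of a line came from separate cultures is thus not settled, and p-values measure the spread between these arrays, which may be technical. Of the 67 member names in the file, 55 were current symbols and 12 were matched to RefSeq synonyms. All tested members are described, in full where called. Genes of the other lists are named where called, apart from an item that is not reported here. The members, lists and tests were chosen with earlier results of these data known. A probe above background on both arrays of 1 line and on 0 arrays of the other has a bound as its fold. Probe sequences were not used here, so shared sequence between paralogs or pseudogenes, as for Eef1a1, was not checked. The steps were tested on simulated data. Alternatives covered the background correction, normalization, filter, variance model, probe choice, replicate block, arrays used and the t-test.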

Additional observations from a re-analysis of the deposited data

How the results depend on the processing

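Of the 29 called values of translation factor probes, 0 reversed under any alternative, and all 29 stayed called with normexp at an offset of 50, without background correction and with limma-trend, while 0 of the 29 stayed called with the methods' t-test after adjustment. The count in EPC_acLDL against EPC (1) was 4 with the offset of 50, 6 without background correction, 3 with a shift to the 75th percentile, 2 over probes above background on all arrays, 8 with limma-trend, 0 with the replicate block, 0 from the 4 arrays of both lines, and 9 and 0 with the methods' t-test before and after adjustment. Over all tested probes (77) it was 164, 273, 138, 281 with limma-trend, 50 without a detection filter, 43 with the block, 35 from 4 arrays, and 355 and 1 with the t-test. With that adjusted t-test, EPC_Late against EPC gave 1 translation factor probe and 15 probes in all (the 1 is Eif5, not among the 13 and with an SD of 0.00 in both lines after quantile normalization), and EPC_Late against EPC_acLDL 0 and 11. Leaving out 1 array gave 0 to 1, 10 to 12 and 8 to 14 translation factor probes, the 8 without either EPC_acLDL array, and 9 to 36, 370 to 468 and 203 to 460 probes in all, in the order of the comparisons. The median difference of the members in that order was -0.0011 to 0.048, 0.0633 to 0.246 and -0.0613 to 0.0545 without 1 array, 0.19 in the first and -0.27 in the last with the 75th percentile shift, 0.0248 in the second without a detection filter, and -0.0531 and -0.11 in the second and last with 1 probe per gene. With the 75th percentile shift the median of all tested probes was 0.16, 0.02 and -0.15, against 0.01, 0.01 and 0.00, and calls of EPC_Late against EPC_acLDL became 5 higher and 8 lower, or 38.5% higher against 53.3%. Over all tested probes the share of higher calls went from 58.4% to 82.6% in EPC_acLDL against EPC and from 44.8% to 26.1% in EPC_Late against EPC_acLDL. Replicate numbers did not pair the arrays (correlations of deviations 0.02 to 0.08), and with the replicate block 0, 13 and 14 members were called. Causes were not tested. The number of arrays limits the precision.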
